A study of Mus musculus with 6 samples.

Results

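Liver RNA of mice 6 h after an overdose of acetaminophen (APAP, paracetamol; 400 mg/kg into the peritoneum) was compared with liver RNA of control mice across all genes with a mean of at least 1 FPKM (fragments counted on a transcript, scaled to its length and to the fragments in the library) over the 4 libraries of both groups. These were 10134 of the 55401 genes in the deposited table. The mean reached 1 FPKM in both groups for 8884 of them, in APAP alone for 546 and in control alone for 704. The control group was replicates 1 and 3, labelled as normal C57BL/6 liver with no treatment named, and the APAP group was replicates 1 and 3, labelled with APAP as source and treatment. The series holds 2 further libraries, from mice given costunolide (COS, 20 mg/kg) before the same APAP dose. They entered the main fit only through the scaling between libraries and the shared estimate of the spread. The labels record neither the hour of collection nor feeding nor a vehicle for the controls. One protocol sentence assigns the COS pretreatment to the samples numbered 5 and 6, positions that in accession order hold the APAP libraries. If that sentence and not the title, source and treatment fields were right, the libraries labelled APAP would be those with COS as well.

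Acetaminophen is turned over in hepatocytes mostly to glucuronide and sulfate, and in part by cytochromes P450 to a reactive quinone imine that glutathione takes up. Once glutathione is spent, the quinone imine binds to proteins, many of them mitochondrial, and cells around the central vein die. A hepatocyte divides its transcript pool between plasma proteins for secretion, mitochondrial and metabolic enzymes, and the factors that read the genome and process RNA. Mitochondria carry a small genome of their own, but the ribosomal proteins and tRNA synthetases that translate it are encoded in the nucleus and imported.

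The 4 libraries held 73041613 to 76669799 estimated counts. Across the tested genes, libraries of a group correlated at r = 0.9735 (control) and 0.9771 (APAP) on the log2(FPKM + 1) scale, and libraries of different groups at 0.861 to 0.8864. The labels do not say whether the libraries within a group are from different animals, so p-values measure only the spread between these libraries, which may be technical. Hepatocyte markers summed to 53100 and 51700 FPKM in control and 61600 and 60100 in APAP, with 2 of 10 members higher and 3 lower. Sinusoidal endothelial markers, with 4 of 8 higher, summed to 29.2 and 32.4 FPKM in control and 44.2 and 40.8 in APAP, and cholangiocyte markers, with 2 of 4 tested members higher, to 28.5 and 34.4 against 51.0 and 35.4. Erythroid markers summed to 298 and 269 FPKM in control and 1490 and 1080 in APAP, with 4 of 5 tested members higher, and neutrophil markers to 4.1 and 6.68 against 31.8 and 10.5, with Ly6g at 0 in all 4 libraries. T and NK cell markers and B cell markers each summed to at most 1.9 FPKM in every library, and 5 of 7 pancreas markers were at 0. Fat markers summed to 2.63 and 2.4 FPKM in control and 11.6 and 5.77 in APAP, with 1 of 2 tested members higher. The part of these cell types or of neighbouring tissue in the differences was not tested, and in whole liver fewer cells of a type cannot be told apart from less RNA per cell.

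By edgeR's quasi-likelihood test at a Benjamini-Hochberg adjusted p below 0.05, 4647 genes (45.9% of those tested) were called, 2379 higher (23.5%) and 2268 lower (22.4%) in APAP. At least a 2-fold change was reached by 1250 of the higher genes (12.3%) and 1115 of the lower (11%). Large rises outnumbered large falls: 167 genes rose and 107 fell at least 8-fold, and 48 rose and 18 fell at least 32-fold. The balance of directions depended on scaling. Without the TMM factors, on library totals alone, 1923 genes were higher and 2838 lower (40.4% higher, against 51.2%), and the median over all genes moved from -0.00 to -0.15 on the log2 scale. limma on log2(FPKM + 1) and on log2(FPKM + 0.1) gave 41.1% and 41.0% higher. Medians of gene groups are from the fit with TMM scaling, and on library totals most of them were lower by about the same 0.15.

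Precision changed with abundance, and not in 1 direction. The margin of a log2 fold change, from its value to either end of its 95% interval, had a median of 0.46 over all genes, 0.59 between 1 and 3 FPKM and 0.36 between 30 and 300 FPKM. It was wider again for the most abundant genes, at 0.43 between 300 and 1000 FPKM and 0.46 from 1000 FPKM on. The control and APAP libraries did not overlap in FPKM for 7744 genes (76.4%), among them every called gene. An exact permutation test of 1 gene has a smallest two-sided p of 0.33 in groups of 2, so the calls rest on the spread shared across genes and groups. A change of at least 2-fold was not called for 374 genes, and 689 called genes differed by less than 1.5-fold.

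By abundance class, the balance of higher and lower calls shifted. Classes were cut on the mean over control and APAP libraries together, so strongly changed genes were classed partly by their APAP level. Slc25a47, with means of 68.8 FPKM in control and 576 in APAP, entered the 300 to 1000 FPKM class that way. The part of this rule in the balance of the upper classes was not tested. Between 1 and 3 FPKM, 20.8% of 3884 genes were higher and 18.9% lower, and between 3 and 10 FPKM 25.7% and 22.1% of 3494. Lower calls outnumbered higher ones at middle abundance, with 24.2% higher and 27.4% lower between 10 and 30 FPKM and 22.2% and 30.7% between 30 and 100 FPKM. The 98 genes between 300 and 1000 FPKM leaned the other way, with 37 higher and 14 lower, a median log2 fold change of 0.33, and 25 against 5 genes past 2-fold. Their median stayed between 0.19 and 0.42 under the alternatives tried, while the lower count was 7 without APAP replicate 1 and 7 without APAP replicate 3. With 1 library left out fewer genes were called in most classes. Between 1 and 3 FPKM, 500 were higher without APAP replicate 1 and 453 lower without control replicate 3, between 30 and 100 FPKM 110 were higher without control replicate 3 and 113 without APAP replicate 1, and between 100 and 300 FPKM, where 71 were lower, 43 were without APAP replicate 1. Among the 62 genes from 1000 FPKM on, 17 rose and 20 fell. Of these calls, 10 higher and 9 lower were left without control replicate 3, 4 and 8 without APAP replicate 1, and 8 and 0 without APAP replicate 3.

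**Figure D1:**
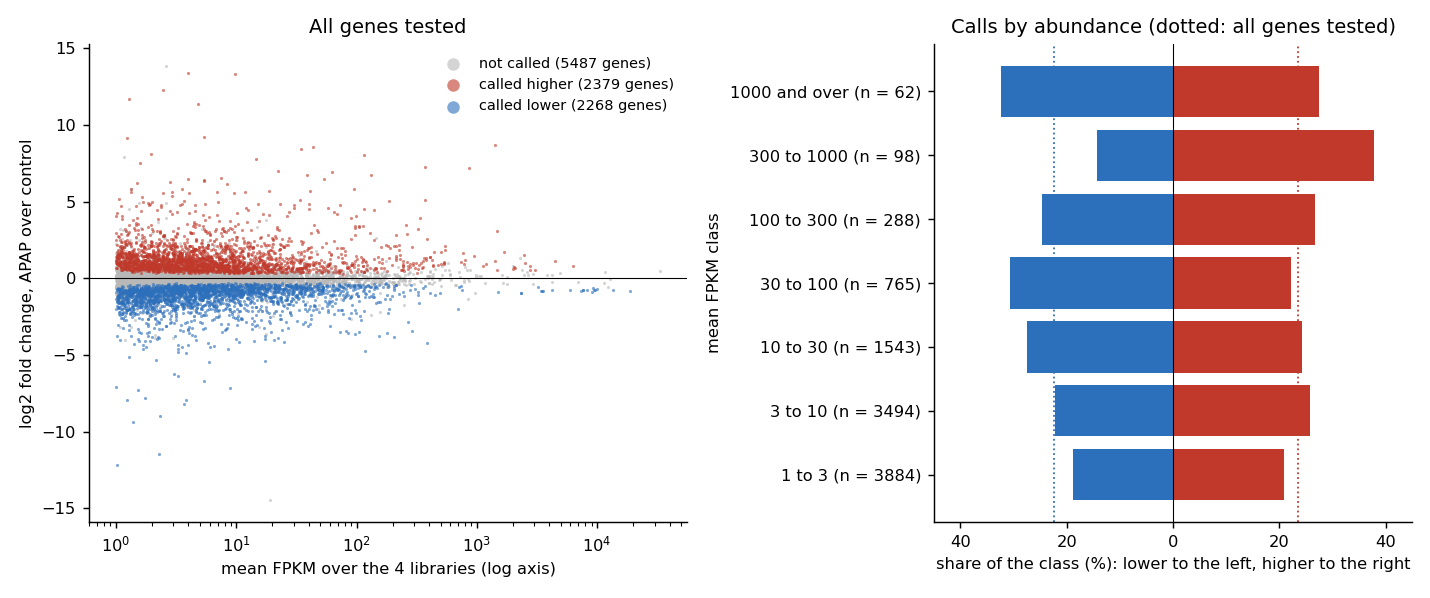
Left, log2 fold change (APAP over control) of each tested gene against its mean FPKM on a log axis, coloured by call; right, percent of each abundance class called higher (to the right) or lower (to the left), with dotted lines at the shares of all genes (23.5% and 22.4%). The 300 to 1000 FPKM class has the largest share called higher (37.8%) and the smallest called lower (14.3%) of the 7 classes. Classes are cut on the mean of all 4 libraries, so strong risers can enter an upper class through their APAP level.

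The most abundant transcripts took a smaller part of the FPKM total in APAP. The smallest number of genes that together hold 50% of the FPKM total was 28 and 22 in control and 35 and 40 in APAP. For 90% it was 1302 and 1210 against 1309 and 1401. The share of the 1000 most abundant genes overlapped, with 88.08% and 88.68% in control and 88.14% and 87.59% in APAP. Fewer genes reached 1 FPKM in APAP (9632 and 9784, against 9940 and 10153 in control). That count depends on scaling, since the deposited FPKM carry no TMM factors. The FPKM totals were 526714 and 561228 in control and 485291 and 474542 in APAP. The count was not repeated with scaled values, so it does not show that fewer genes were expressed. Transcripts of the mitochondrial chromosome took 22.7% and 26.9% of the FPKM total in control and 16.6% and 14.8% in APAP. Alb, which encodes albumin and had the highest mean level, stood at 28986 and 29091 FPKM in control and 39526 and 35830 in APAP. Both APAP libraries lay above both controls, but the log2 fold change of 0.51 (SE 0.23) had an adjusted p of 0.122 by edgeR's test, while DESeq2 called it at an adjusted p of 0.000136. mt-Co1, a cytochrome c oxidase subunit encoded in mitochondria, had 21966 and 27548 FPKM in control and 13159 and 12007 in APAP. It fell by 0.84 on the log2 scale (SE 0.21, adjusted p = 0.0245), a call that ended without APAP replicate 1 or without APAP replicate 3 (adjusted p up to 0.212 over the alternatives). Vtn, encoding the plasma protein vitronectin, held 1047 and 1048 FPKM in control and 1039 and 1051 in APAP, and the groups overlapped. Its fitted difference of 0.13 (SE 0.13, adjusted p = 0.458) was made with TMM factors of 1.07 and 1.09 in control and 0.96 and 1.00 in APAP.

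Sorted by the cellular component terms in the deposited GO column, products of mitochondria, of the nucleus and of the secretory route went different ways. Of 917 genes with mitochondrial terms alone, 152 were higher (16.6%) and 313 lower (34.1%), with a median log2 fold change of -0.26. Of 536 genes with secreted terms alone, 165 were higher (30.8%) and 105 lower (19.6%), with a median of 0.21. Of 3170 genes with nuclear terms alone, 912 were higher (28.8%) and 584 lower (18.4%), with a median of 0.10 that became -0.04 on library totals and -0.03 with limma on log2(FPKM + 0.1). Taken against the median of all genes in the same fit, the mitochondrial median ran from -0.28 to -0.20 over the alternatives, the secreted median from 0.12 to 0.28 and the nuclear median from 0.08 to 0.13. Without APAP replicate 1, the library whose absence cost most calls, 96 mitochondrial genes were higher and 197 lower, 105 secreted genes were higher and 602 nuclear genes were higher. Without control replicate 3, 97 mitochondrial and 107 secreted genes were higher and 389 nuclear genes were lower.

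Summed levels did not simply follow the counts of genes. Secreted products took 26.4% and 23.4% of the FPKM total in control and 33.2% and 33.7% in APAP. Mitochondrial products took 27.8% and 31.2% in control and 21.4% and 20.0% in APAP, and both APAP libraries lay below both controls. The difference lay in transcripts of the mitochondrial chromosome. Of all 36 tested genes of that chromosome, only some of which carry the GO terms of the class, 17 fell and none rose. The 904 mitochondrial genes of the nuclear genome took 5.99% and 5.29% in control and 5.67% and 5.95% in APAP, and the groups overlapped, although 303 of them fell and 152 rose. In the class of 917 genes, 135 of 326 members between 10 and 100 FPKM fell and 55 rose, and the 82 members from 100 FPKM on had a median of -0.08. Nuclear products rose in share from 8.09% and 7.83% to 10.7% and 10.4%. The 57 nuclear members from 100 FPKM on went from 3.75% and 3.71% to 5.91% and 5.44%. The 2549 under 10 FPKM went from 1.71% and 1.64% to 1.87% and 1.94%. Among secreted products, 108 members from 100 FPKM on went from 24.9% and 22.1% to 31.9% and 32.3%. All are shares of 1 total, so a fall in 1 share raises the others.

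**Figure D2:**
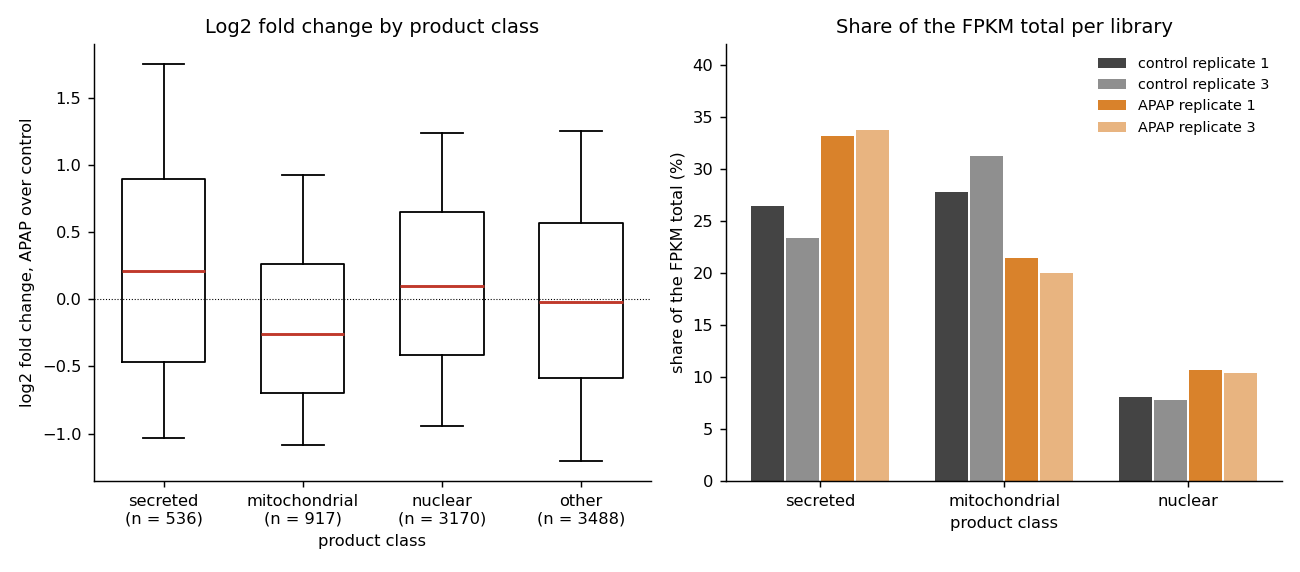
Left, log2 fold change (APAP over control) of the genes in each product class, with boxes at the quartiles, a red line at the median and whiskers at the 10th and 90th percentiles; right, share of each library's FPKM total taken by 3 classes, 1 bar per library. The mitochondrial box sits lowest (median -0.26), and both APAP libraries are above both controls for secreted and nuclear products and below them for mitochondrial products.

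The genes that serve mitochondrial translation fell as a group. Of 79 nuclear-encoded mitochondrial ribosomal proteins, 44 fell and none rose, with a median log2 fold change of -0.49, against 22.4% lower and a median of -0.00 over all genes. Without control replicate 3, 27 were lower and 1 higher, and without APAP replicate 1, 28 were lower, while the median stayed between -0.63 and -0.48 under the alternatives tried. Mrpl22, a large subunit protein, had 31.2 and 35.9 FPKM in control and 9.32 and 10.7 in APAP. Its log2 fold change was -1.61 (SE 0.15, adjusted p = 0.00166), with both APAP libraries far below both controls. Mrps27, a small subunit protein, went from 21.2 and 22.8 to 7.23 and 8.01 FPKM. Mitochondrial tRNA synthetases followed, with 5 of 13 lower, none higher and a median of -0.49 (3 lower without APAP replicate 1).

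The cytosolic translation genes did not follow them. Of the cytosolic tRNA synthetases 45% were called and of the initiation and elongation factors 46.8%, near the 45.9% of all genes, with most of these calls higher. Among 20 cytosolic tRNA synthetases 9 rose and none fell, with a median of 0.44. Tars, encoding threonyl-tRNA synthetase, rose from 5.58 and 4.93 FPKM to 20.6 and 18.6 (log2 fold change 2.03, SE 0.16, adjusted p = 0.00135). Of 62 initiation and elongation factors 26 rose and 3 fell, with a median of 0.34, and 14 rose when either control replicate 3 or APAP replicate 1 was left out (1 fell without control replicate 3 or without APAP replicate 3). Eef2, the translocation factor of elongation, had 240 and 214 FPKM in control and 517 and 546 in APAP (log2 fold change 1.36, SE 0.15, adjusted p = 0.00213). Eif4ebp3, of the family that holds back cap-dependent initiation, rose as well, from 25.9 and 15.2 to 125 and 256 FPKM. Of the 88 cytosolic ribosomal proteins, 8 rose and 12 fell (22.7% called, beside 45.9% of all genes), and their median of -0.09 became 0.05 without control replicate 3, where 2 were lower. Leaving out APAP replicate 1 or APAP replicate 3 left 4 lower. Rps10 fell from 41.4 and 54.3 to 20.2 and 22.6 FPKM, and Rpl9 rose from 27.4 and 27.6 to 47.7 and 48.7.

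Other mitochondrial gene groups split. The share called was 64.1% for carriers and 54.5% for protein import genes, beside 45.9% of all genes. Mitochondrial carriers, the transporters of the inner membrane, counted 14 higher and 11 lower of 39, where 7 were lower without either control replicate 3 or APAP replicate 1. Slc25a47, an inner-membrane carrier made in liver, had 78.8 and 58.7 FPKM in control and 688 and 465 in APAP (log2 fold change 3.20, SE 0.31, adjusted p = 0.0017). Pdk4, the kinase that switches off pyruvate dehydrogenase, rose from 1.18 and 0.99 FPKM to 26.4 and 12.3, and Mmab, which makes the cobalamin cofactor of methylmalonyl-CoA mutase, fell from 15.3 and 15.4 to 2.16 and 1.40. Protein import genes were even, with 9 higher and 9 lower of 33, or 5 and 5 without APAP replicate 1 and 5 lower without control replicate 3.

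Secreted products moved in both directions. Igfbp1, which binds insulin-like growth factors in plasma, reached 803 and 646 FPKM in APAP from 40.5 and 5.13 in control. The controls were far apart there, yet both lay below the APAP libraries (log2 fold change 5.12, SE 1.00, adjusted p = 0.0107). Among 61 secreted growth factors and hormones, 16 rose and 12 fell, close to the shares of all genes. Fgf21, a fasting and stress hormone of liver, rose from 0.65 and 0.93 to 50.3 and 22.96 FPKM, whereas Lect2, a chemotactic protein that hepatocytes release, fell from 163 and 152 to 8.11 and 16.2. The 2 inhibin beta chains, from which activins are assembled, went opposite ways. Inhbb had 0.10 and 0.12 FPKM in control and 5.41 and 4.28 in APAP, and Inhba 1.90 and 2.73 in control and 0.24 and 0.27 in APAP. Fgf21 and Inhbb passed the filter of 1 FPKM through APAP alone, and Inhba through control alone.

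Transcription factors were called more often higher than lower. Over all tested genes the shares were 23.5% higher and 22.4% lower. The 13 families on the lists held 365 tested members, of which 112 rose (30.7%) and 74 fell (20.3%), with a median of 0.16 that was 0.01 on library totals and 0.03 with limma on log2(FPKM + 0.1). All 6 tested AP-1 subunits rose, as did 8 of 11 ETS factors (5 without APAP replicate 1) and 18 of 33 bZIP factors outside AP-1, of which 3 fell. Fos went from 2.24 and 1.86 FPKM to 58.7 and 73.8 (log2 fold change 5.13, SE 0.18, adjusted p = 0.000634). Fosl1 was listed at 0 in both controls with 13.1 and 2.84 FPKM in APAP, at least 215-fold higher against a floor of 12 counts over the control group. Atf3, a stress-induced bZIP repressor, had 0.88 and 1.04 FPKM in control and 246 and 213 in APAP. Ets2, of the ETS family, rose from 0.60 and 1.15 to 10.1 and 7.61, and Klf6, an immediate early zinc finger factor, from 1.10 and 1.24 to 25.95 and 21.6. Fosl1, Atf3, Ets2 and Ets1 had control means of 0, 0.96, 0.875 and 0.865 FPKM and passed the filter through APAP alone. Such members add to the higher counts by the filter itself, and the families were not counted without them.

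Families that hold hepatocyte and metabolic regulators were mixed. Beside 45.9% of all genes, 57.7% of nuclear receptors, 64.3% of homeobox factors and 56% of bHLH factors were called. Of 26 nuclear receptors, 7 rose and 8 fell, and the median of -0.23 became 0.04 without control replicate 1. Rora, an orphan nuclear receptor, rose from 2.27 and 1.76 FPKM to 7.03 and 7.12. Nr1i3, the xenobiotic receptor CAR, had 119 and 113 FPKM in control and 20.9 and 29.8 in APAP, a log2 fold change of -2.07 (SE 0.19, adjusted p = 0.00158). Hnf4a, a master regulator of hepatocyte genes, rose from 78.4 and 73.4 to 121 and 176. Foxa2, a forkhead factor that acts beside it, fell from 11.7 and 18.4 FPKM to 4.38 and 4.71. Homeobox factors counted 3 higher and 6 lower of 14 (1 higher without APAP replicate 1). Among bHLH factors 9 rose and 5 fell of 25, among them Mlxipl, the carbohydrate response factor ChREBP, which had 83.7 and 83.5 FPKM in control and 19.4 and 21.0 in APAP.

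The factors of interferon and NF-kappaB signalling also split. Of 17 IRF, STAT and NF-kappaB genes, 4 rose and 7 fell (64.7% called, beside 45.9% of all genes). Stat2, which carries the type I interferon signal, fell from 9.50 and 14.2 FPKM to 3.12 and 3.91. Stat3, which carries the interleukin-6 signal, rose from 5.38 and 4.48 to 13.3 and 13.5, and Rela, the main transactivating NF-kappaB subunit, from 7.22 and 6.51 to 19.8 and 16.4. In the antigen presentation list 11 of 31 genes fell and none rose (6 without APAP replicate 1). The called share of that list was 35.5%, below the 45.9% of all genes, while its lower share was above the 22.4% of all genes. Psmb9, an immunoproteasome subunit, fell from 5.75 and 4.99 to 1.05 and 0.82 FPKM, and Ube2l6, which conjugates the ubiquitin-like protein ISG15, from 43.3 and 41.7 to 13.4 and 11.02. T and NK cell and B cell markers were at or near 0 in all 4 libraries, and the Kupffer cell markers, with 3 of 9 higher, summed to 134 and 114 FPKM in control and 132 and 183 in APAP. The large class of zinc finger genes named Zfp, Zscan and the like had 37.3% of its 134 members called, beside 45.9% of all genes, with 25 higher and 25 lower. Without control replicate 3, 16 were higher and 16 lower, and without APAP replicate 1, 15 were higher.

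**Figure D3:**
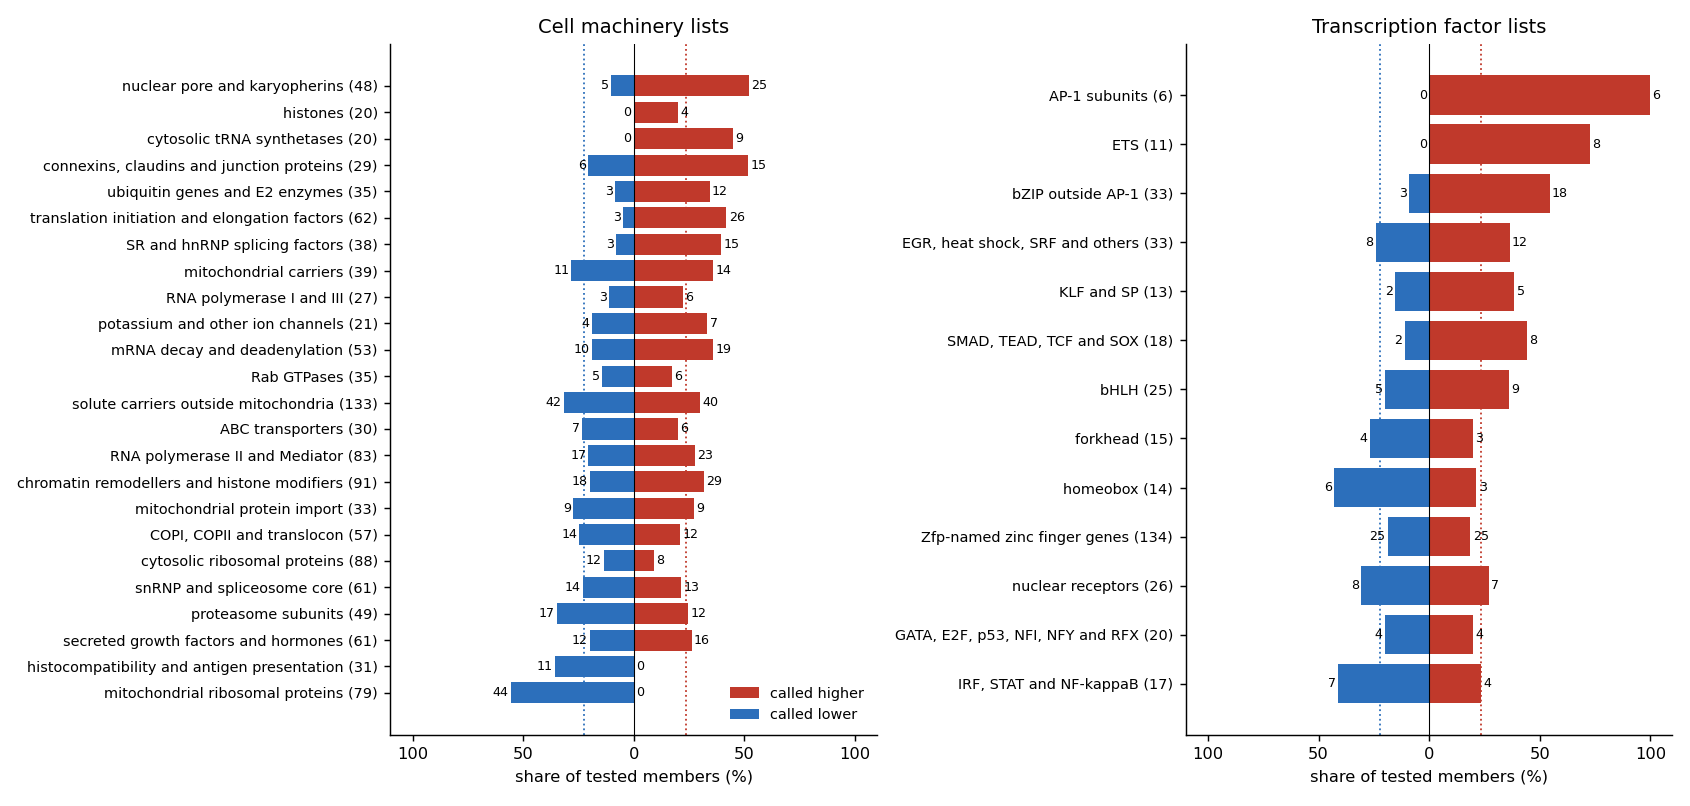
Percent of the tested members of each gene list (their number in parentheses) called higher, to the right, or lower, to the left, in APAP, with the counts at the bar ends and dotted lines at the shares of all genes (23.5% and 22.4%). Left, lists of cell machinery with at least 20 tested members; right, transcription factor families. Mitochondrial ribosomal proteins have 44 lower and 0 higher, and AP-1 subunits 6 higher and 0 lower. Members that passed the filter through APAP or control alone are included.

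Matches to 12 motifs were counted in the 250 bases before the start site of RefSeq promoters (GRCm38.p6). The AP-1 site and the CREB and ATF site are given here, chosen by their shares of genes called higher. Of 8689 tested protein-coding genes, 6995 (80.5%) had a promoter there, and 25% of these were higher and 23.2% lower. TGACTCA, the AP-1 site, was found on either strand at 220 genes, of which 34.5% were higher and 22.7% lower. TGACGTCA, the CREB and ATF site, was found at 189 genes, of which 35.4% were higher and 12.2% lower. Of all 32851 promoters in the RefSeq table, 4.46% held TGACTCA and 1.55% held TGACGTCA. Of 12 motifs counted, these had the largest shares called higher, and a match describes letters, not binding. Shares of motifs within the genes called higher are not given, since only 79.0% of those genes had a promoter. The stretches below show a site in genes that were far apart between groups, and were chosen after motif matches and fold changes were known. Capitals mark the TGACTCA site (as TGAGTCA on the other strand in Nr1i3) or the TGACGTCA site.
Mt2, chr8:94172494-94172590, plus strand: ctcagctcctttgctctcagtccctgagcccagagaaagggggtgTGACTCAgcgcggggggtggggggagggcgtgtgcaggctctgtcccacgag
Osgin1, chr8:119437005-119437101, plus strand: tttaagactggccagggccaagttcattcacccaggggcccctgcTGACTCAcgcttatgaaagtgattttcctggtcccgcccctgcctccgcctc
Nr1i3, chr1:171213816-171213912, plus strand: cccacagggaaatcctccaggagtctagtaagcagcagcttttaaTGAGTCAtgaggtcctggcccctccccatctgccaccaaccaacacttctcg
Btg2, chr1:134079269-134079366, minus strand: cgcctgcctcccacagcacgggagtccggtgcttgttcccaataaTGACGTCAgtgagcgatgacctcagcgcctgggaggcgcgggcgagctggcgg
Zfand2a, chr5:139484564-139484661, minus strand: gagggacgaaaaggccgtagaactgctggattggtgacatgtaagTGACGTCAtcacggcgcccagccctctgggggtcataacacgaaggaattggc

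The genes behind these stretches covered both directions. Mt2, encoding a metal-binding metallothionein, rose from 5.68 and 8.99 FPKM to 2706 and 2911, a log2 fold change of 8.71 (SE 0.43, adjusted p = 0.000843), and its site began 79 bases before the start site. Btg2, an antiproliferative partner of the deadenylase complex, rose from 4.37 and 2.71 to 215 and 160 FPKM, with its site 166 bases before the start. Zfand2a, an arsenite-inducible proteasome-associated gene, had 1.84 and 1.72 FPKM in control and 16.1 and 15.9 in APAP. Osgin1, an oxidative stress-induced growth inhibitor, had 9.43 and 11.8 FPKM in control but 324 and 112 in APAP. The APAP libraries of Osgin1 were far apart, and its call at an adjusted p of 0.0312 ended without control replicate 1, without control replicate 3 and without APAP replicate 1 (adjusted p up to 0.127). Nr1i3 carries the site 109 bases before its start and fell, as given above. Promoters also differed by CpG content: of 2086 genes with a CpG ratio (observed over expected) of at most 0.6, 20.7% were higher and 29.7% lower, and of 4909 genes above 0.6, 26.8% and 20.5%.

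Lists of RNA traffic, splicing and turnover differed in balance. The share called, beside 45.9% of all genes, was 62.5% for pore genes and karyopherins and 54.7% for mRNA decay. It was 47.4% for SR and hnRNP factors and 44.3% for the spliceosome core, near the share of all genes. Of 48 nuclear pore proteins and karyopherins, 25 rose and 5 fell, with a median of 0.57, and 18 rose and 2 to 4 fell in each fit that left out 1 library. Pom121, which anchors the pore in the membrane, rose from 1.33 and 1.55 to 5.06 and 4.49 FPKM, whereas Xpo1, the main exporter of proteins with a leucine-rich export signal, fell from 2.74 and 2.98 to 0.87 and 1.11. SR and hnRNP splicing factors counted 15 higher and 3 lower of 38 (none lower without control replicate 3, 1 without either APAP library), while the spliceosome core counted 13 higher and 14 lower of 61, with 4 to 6 higher and 11 to 13 lower when any 1 library was left out. In mRNA decay 19 of 53 genes rose and 10 fell, with a median of 0.09 that became -0.06 on library totals. Exosc8, an exosome subunit, fell from 2.72 and 3.66 to 0.99 and 1.00 FPKM, and Cnot8, a deadenylase subunit, from 13.7 and 12.8 to 5.18 and 5.40. H3f3b, which encodes the replication-independent histone H3.3, rose from 31.1 and 33.1 to 248 and 200 FPKM (log2 fold change 2.94, SE 0.28, adjusted p = 0.00166).

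Chromatin and polymerase genes were nearer to the background. The share called was 51.6% for remodellers and histone modifiers and 48.2% for polymerase II and Mediator genes, beside 45.9% of all genes. Of 91 remodellers and histone modifiers, 29 rose and 18 fell, with a median of -0.05 that ran from -0.20 to 0.03 over the alternatives. Chd9, a chromatin helicase, rose from 2.36 and 2.33 FPKM to 24.4 and 32.9, and Kmt5c, a histone H4 lysine methyltransferase, fell from 4.62 and 5.39 to 1.09 and 1.31. Of 83 genes of RNA polymerase II, its general factors and Mediator, 23 rose and 17 fell, but 15 were higher without APAP replicate 1 and 9 to 11 lower with any 1 library left out. Polr2i, a small polymerase II subunit, had 20.2 and 27.5 FPKM in control and 7.62 and 8.90 in APAP.

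Protein turnover and transport genes moved in both directions. Called were 59.2% of proteasome subunits, 42.9% of ubiquitin genes and conjugating enzymes and 61.7% of solute carriers outside mitochondria, beside 45.9% of all genes. Proteasome subunits counted 12 higher and 17 lower of 49, with 6 higher and 11 lower without control replicate 3, 11 lower without APAP replicate 1 and 7 higher without APAP replicate 3. The immunoproteasome subunit Psmb10 fell from 14.9 and 17.5 to 5.83 and 4.95 FPKM, and Psmd8, of the regulatory particle, rose from 23.1 and 19.4 to 45.2 and 47.4. Ubiquitin genes and conjugating enzymes had 12 higher and 3 lower of 35, where 5 to 7 were higher with any 1 library left out. In the signal peptidase, Spcs2 fell from 15.0 and 14.8 FPKM to 2.58 and 2.61 (log2 fold change -2.39, SE 0.14, adjusted p = 0.000889), while Spcs1 rose from 7.39 and 5.00 to 13.3 and 13.1. Solute carriers outside mitochondria were even, with 40 higher and 42 lower of 133 (26 lower without APAP replicate 3), and included near losses: Slc1a2, a glutamate transporter, had 7.91 and 6.74 FPKM in control and 0.00 and 0.05 in APAP, and Slc13a3, a dicarboxylate transporter, 3.80 and 3.09 against 0.00 and 0.03. Slc1a2 and Slc13a3 passed the filter through control alone. Slc2a1, the glucose transporter GLUT1, rose from 1.93 and 1.98 to 28.8 and 16.03.

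Of 29 genes of cell junctions, 15 rose and 6 fell (72.4% called, beside 45.9% of all genes), or 9 rose without control replicate 1 or without APAP replicate 1. Their median was 0.41, or 0.15 after subtraction of the median of genes of like transcript length. Cholangiocyte markers, given above, had 2 of 4 tested members higher with a median of 0.92, and their part in the junction counts was not tested. Cdh1, encoding E-cadherin, rose from 5.95 and 5.76 FPKM to 24.4 and 18.99, and Cldn14, a claudin of tight junctions, from 4.63 and 5.80 to 22.2 and 19.02. Cldn3, another claudin, fell from 79.1 and 82.2 to 15.4 and 16.7 FPKM (log2 fold change -2.20, SE 0.11, adjusted p = 0.000843), and all 4 of its values lay far outside those of the other group.

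Among 1080 GO and 249 KEGG terms with 20 to 300 tested members, some of those with the largest shares of called members are described here, chosen by those shares, and terms share genes. Of all tested genes, 23.5% were higher and 22.4% lower. The higher share exceeded that of all genes in 866 GO and 186 KEGG terms, while it was 11.9% among 1439 genes without a GO term. Many terms named are near the minimum of 20 members, where a few calls shift the share most. Among the highest in genes called higher were response to cold (14 of 20), podosome (14 of 21, none lower), the precursor of the large ribosomal subunit (14 of 21), regulation of mRNA stability (13 of 20, none lower), chromatin DNA binding (20 of 33), positive regulation of macroautophagy (15 of 25) and fatty-acyl-CoA binding (12 of 20). Vcl, the adhesion protein vinculin, rose by a log2 fold change of 3.06 in the podosome term. Eif6, which keeps new large subunits from joining small ones, rose from 10.6 and 10.3 to 41.2 and 37.8 FPKM in the ribosome precursor term, and Sesn2, a stress-induced regulator of autophagy, from 1.71 and 1.20 to 12.6 and 11.8. In KEGG, bacterial invasion of epithelial cells led (26 of 46), a term made largely of actin and adhesion genes. Actg1, encoding cytoplasmic gamma-actin, rose there from 46.7 and 45.7 to 552 and 397 FPKM. Mineral absorption (12 of 22), legionellosis (18 of 35), adherens junction (24 of 49) and mitophagy (25 of 53) also had high shares.

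For terms of genes called lower, the share to compare is the 22.4% of all genes. Among the highest in genes called lower were arachidonic acid epoxygenase activity (12 of 21), sterol biosynthesis (15 of 27), the large and small mitochondrial ribosomal subunits (32 of 60 and 15 of 29), mitochondrial translation (17 of 34) and NADH dehydrogenase activity (13 of 26). Mvd, a decarboxylase of the mevalonate route to sterols, fell from 32.3 and 40.3 to 3.61 and 2.10 FPKM, and Fdps, which makes farnesyl diphosphate, from 60.9 and 86.7 to 10.4 and 6.74. In KEGG these were linoleic acid metabolism (10 of 21), nicotinate and nicotinamide metabolism (11 of 24), terpenoid backbone synthesis (9 of 20), the Fanconi anemia pathway (9 of 21) and drug metabolism by cytochrome P450 (19 of 47). Nmrk1, a nicotinamide riboside kinase, fell from 11.2 and 14.1 FPKM to 3.01 and 2.57, and Nmnat1, which completes NAD synthesis in the nucleus, fell by 1.19 on the log2 scale. Cyp2c38 fell from 26.8 and 22.4 to 2.16 and 2.49 FPKM; it shares near-identical stretches with other Cyp2c genes, and reads may be divided between them. Rpa3, a subunit of the single-strand DNA binding complex, fell by 2.06 on the log2 scale in the Fanconi term. At the other end, beside 45.9% of all genes called, memory had 4 higher and 1 lower of 28, protein K11-linked ubiquitination 2 and 2 of 21 and, in KEGG, natural killer cell cytotoxicity 7 and 8 of 56.

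Long noncoding genes leaned to lower levels. Of 309 tested long noncoding genes, 38 were higher and 131 lower (12.3% and 42.4%), with a median log2 fold change of -0.91, against 25.4% and 23.2% and a median of 0.01 for 8702 coding genes. The noncoding median ran from -1.06 to -0.61 over the alternatives tried, and at a mean of at least 5 FPKM 13 of 60 were higher (21.7%) and 29 lower (48.3%). A broader list of 1227 genes chosen by symbol (host and antisense genes, Gm and Rik models), which also takes in some coding genes, had 162 higher and 261 lower, with a median of -0.10 that became 0.06 without control replicate 3. Of 891 pseudogenes, 106 were higher and 82 lower. Beside 45.9% of all genes, 34.5% of the broader list and 21.1% of the pseudogenes were called. Gas5 and Zfas1, host genes of small nucleolar RNAs, were picked after the values were seen: Gas5 rose from 10.6 and 13.3 to 21.3 and 21.6 FPKM and Zfas1 from 2.60 and 3.62 to 7.41 and 7.23. A530020G20Rik, with 2.05 and 2.03 FPKM in control, was listed at 0 in both APAP libraries, at least 106-fold lower against 12 counts over the group. The counting is not stated to use strand, so reads of a noncoding gene that overlaps another gene cannot be told apart from that gene's.

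Transcript length went with the difference between groups. Among 8678 coding genes, Spearman's correlation of length and log2 fold change was 0.18, against -0.04 and -0.02 between the 2 control and between the 2 APAP libraries, where genes are not independent replicates. Of genes with transcripts under 1 kb, 16.7% were higher and 28.6% lower (median -0.21). Of those over 5 kb, 41.0% were higher and 15.4% lower (median 0.37). The part of RNA quality or of the counting in this was not tested. After subtraction of the median of genes of like length, chosen as an alternative after the data were seen, the medians were -0.41 for mitochondrial ribosomal proteins, 0.37 for nuclear pore genes, 0.37 for initiation and elongation factors, and -0.21, 0.19 and 0.07 for mitochondrial, secreted and nuclear products. The median of cytosolic tRNA synthetases went from 0.44 to 0.29 by that subtraction and that of the transcription factors from 0.16 to 0.04, with 191 factors above and 174 below the median for their length. Within transcripts under 1.5 kb, 181 of 437 mitochondrial products were lower (median -0.39), against medians of -0.13 for 1055 nuclear and 0.23 for 232 secreted products.

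**Figure D4:**
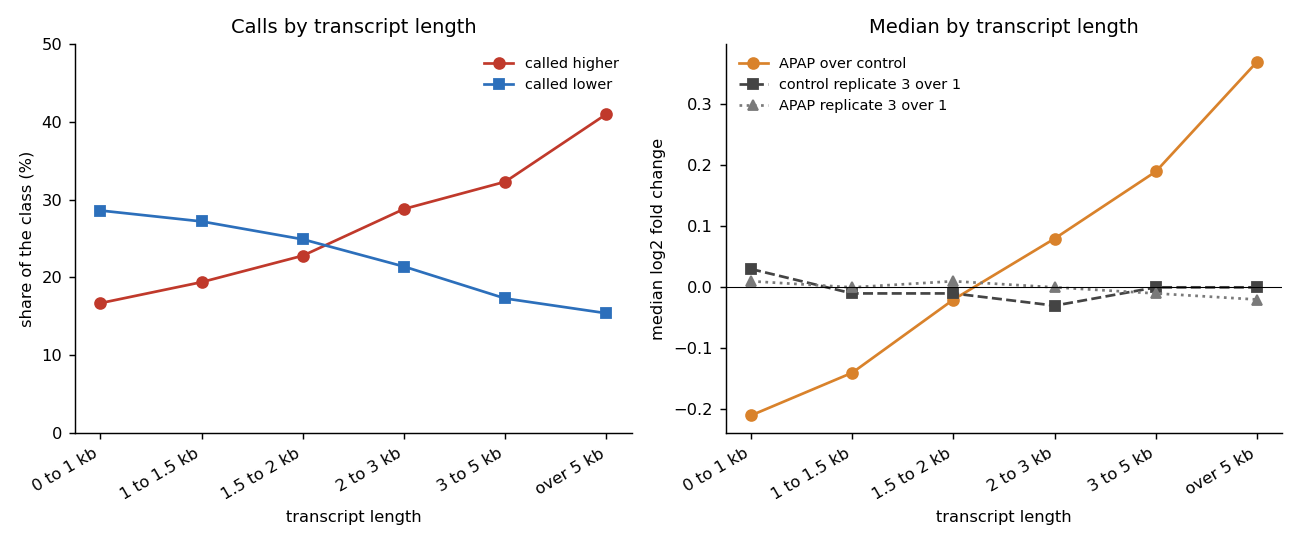
Left, percent of coding genes called higher and lower in 6 classes of transcript length; right, median log2 fold change per class for APAP over control and between the 2 libraries of each group. The APAP median climbs from -0.21 under 1 kb to 0.37 over 5 kb, while the medians between libraries of a group stay within -0.03 and 0.03.

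Genes shown to hold their level were a minority, by a rule that asks for precision as well as for a small difference. The 95% interval of the log2 fold change lay within a 1.5-fold change in either direction for 1426 genes (14.1%), 561 of them with at least 10 FPKM. They made up 19.6% of mitochondrial, 16.6% of nuclear and 11% of secreted products. Between 1 and 3 FPKM the median margin of 0.59 was by itself about as wide as the 1.5-fold limit. Many genes there could not pass even without a difference, so these shares do not count unchanged genes. Plasma proteins were among the most abundant: Serpina1c, of the alpha-1-antitrypsin family whose copies can share reads, had 3849 and 3660 FPKM in control and 3897 and 4027 in APAP, and Apoh, a phospholipid-binding plasma protein, 1020 and 966.6 against 1024 and 946.6.

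Genes often used as references in quantitative PCR were not all level. Of 23 tested, 8 rose and 2 fell (43.5% called, near the 45.9% of all genes). Eef2 rose most, with the values given above, followed by Gusb, a lysosomal glucuronidase, from 2.42 and 1.72 to 4.72 and 4.35 FPKM. Pgk1, a glycolytic kinase, rose from 75.5 and 59.6 to 119 and 110 FPKM, and Sdha, a succinate dehydrogenase subunit, from 54.1 and 45.4 to 70.0 and 74.1. Ppib, an isomerase of the endoplasmic reticulum, fell from 102 and 99.5 FPKM to 41.6 and 44.0 (log2 fold change -1.10, SE 0.10, adjusted p = 0.00157). Actb, Eef1a1, Rplp0, Polr2a and Psmb2 made up the other called genes, and each lost its call when APAP replicate 1 was left out. Over all alternatives the adjusted p of Actb reached 0.0821, of Eef1a1 0.0597, of Rplp0 0.0728, of Polr2a 0.1 and of Psmb2 0.154. Without APAP replicate 1, 4 were higher and 1 lower, and without APAP replicate 3, 5 and 1. Hprt, Ppia and Ywhaz overlapped between groups: Ppia, a cytosolic isomerase, had 102 and 90.3 FPKM in control and 105 and 94.1 in APAP (log2 fold change 0.19, SE 0.13, adjusted p = 0.284), and Hprt, of purine salvage, 44.8 and 37.8 against 44.7 and 46.8. Gapdh, of glycolysis, had 54.9 and 72.5 FPKM in control and 50.5 and 41.7 in APAP, lower in both APAP libraries without a call (adjusted p = 0.179).

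**Figure D5:**
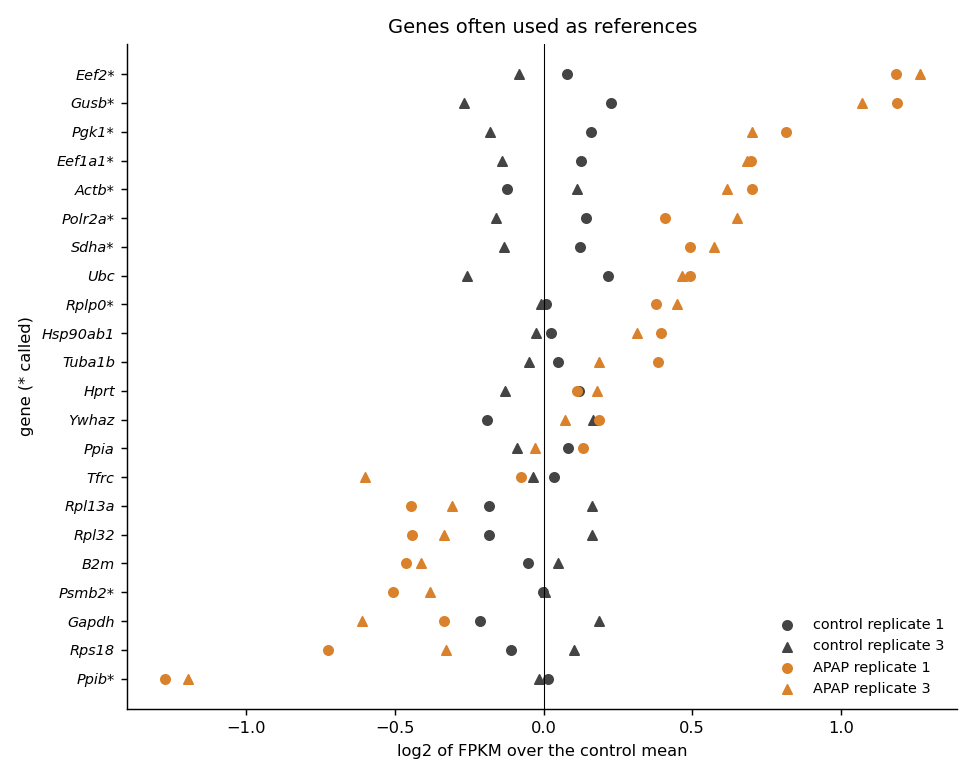
Log2 of FPKM over the control mean for 22 genes often used as references, 1 symbol per library, ordered by fitted log2 fold change, with an asterisk for genes called at an adjusted p below 0.05. Eef2 and Gusb lie farthest to the right and Ppib farthest to the left, while the libraries of Hprt, Ppia and Ywhaz overlap between groups.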

How the data were processed

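Poly(A) RNA of mouse liver was sequenced as paired ends, per the labels' protocols, which also name adipose tissue once. The submitters' processing notes name HISAT2 2.0 and StringTie 1.3.0. No source used here names the genome build, although 94.2% of the 55141 identifiers shared with GENCODE release M21 had identical coordinates. Per the file headers, the deposited table gives 1 estimated count for every gene in each library. It also gives a deposited FPKM value, by the authors, beside each count. Another 6 columns matched no sample and were left out.

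The estimated counts were whole and entered edgeR 4.0.16 (R 4.3.3) unchanged, in 1 model of 3 groups over 6 libraries with TMM scaling, a two-sided quasi-likelihood F test, and Benjamini-Hochberg adjustment over the 10134 genes. This test was run on simulated data in which 200 genes differed and all genes had the same spread. Since 45.9% of genes were called here, that setting cannot show how the scaling or the calls perform in these data. A gene was called at an adjusted p below 0.05. Standard errors are the log2 fold change over the root of F. Low counts peaked at multiples of 4, so a floor of 3 fragments was taken as 12 counts, and it covers counting error only. Alternatives used DESeq2 1.42.0 and limma 3.58.1. A product class took genes with exactly 1 of the 3 kinds of GO term, and the pattern for mitochondrial terms was adjusted once after the term list was read. Named genes were, in each list or class, the 2 called genes with the largest and the 2 with the smallest log2 fold change among those without overlap between groups (for classes and factor families also from 100 or 10 FPKM on), the 12 most abundant genes, all reference genes, the 5 highest of those at 0 in 1 group and the 8 most abundant level genes; the text gives a part of them, and some are not reported here. Examples in GO and KEGG terms were taken from the 3 highest and 3 lowest called members. Some named genes reached a mean of 1 FPKM in 1 group alone, and the filter itself favours large differences in these. Members, lists and rules were chosen with earlier results of these data known, and the counts by biotype, transcript length and promoter CpG content were added after the data were seen.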

Additional observations from a re-analysis of the deposited data

How the results depend on the processing

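No called gene changed sign under any of the 14 alternatives. That could hardly have come out otherwise, since control and APAP libraries did not overlap in FPKM for any called gene. The mitochondrial, secreted and long noncoding medians kept their signs. Only genes with a mean of at least 5 FPKM (4562 genes, so fewer tested) gave 1180 higher and 1213 lower, 552 and 478 of them at least 2-fold. limma on log2(FPKM + 1), which has no TMM scaling and a larger pseudocount, gave 713 higher genes past 2-fold, beside 1004 with limma on log2(FPKM + 0.1) and 1006 on library totals alone. Leaving out 1 library gave 1569 to 1937 higher and 1537 to 1709 lower genes, with 1036 to 1285 and 944 to 1097 past 2-fold; the 1569 came without APAP replicate 1. DESeq2 gave 2812 higher and 2736 lower, its size factors in edgeR 2376 and 2248, the 4 libraries alone 2131 and 2067, no filter 2411 and 2353 of 25191 genes, and counts divided by 4 (added after seeing the data) 2406 and 2285. With the replicate number as a block, 1816 were higher and 1693 lower. The 2 shared numbers are not shown to pair libraries, since the deviations of same-numbered libraries did not correlate. Of the values of genes looked at under these settings, 5119 kept their side of the threshold, 564 lost the call and 20 gained it. Abundance classes by the mean over 6 libraries gave medians of the same sign in all 7 classes, but 22 higher and 20 lower from 1000 FPKM on, and 31 higher and 15 lower with a median of 0.23 between 300 and 1000 FPKM. That mean holds the APAP libraries too, so it cannot show the classes free of the APAP level. Depth limits low genes most, and 2 libraries a group limit every call. Planned features of protein sequences were not computed.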

Other observations

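Chromosomes differed little apart from the mitochondrial one. Among the autosomes, the share called higher ran from 20.6% (chromosome 7) to 28.7% (chromosome 18) and the share called lower from 15.5% (chromosome 18) to 26.9% (chromosome 17). On chromosome X, 52 of 246 genes were higher and 53 lower.

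Several large fitted differences rested on 1 library. In 7 tested genes, 1 library held over 95% of the FPKM summed over the 4, and 1 of these genes was called. All 4 genes with a fitted change over 32-fold that were not called were of this kind. One of the gene identifiers named Zc3h11a was listed at 0.00 and 0.00 FPKM in control and 0.02 and 10.4 in APAP, and Adnp, a homeobox gene, at 0.00 and 0.02 in control and 4.64 and 0.02 in APAP. Gm20390 had 76.5 FPKM in control replicate 3 and 0.00 in the other 3 libraries, and Gm28037 had 5.19 FPKM in APAP replicate 1 and at most 0.10 elsewhere. Gm10680 was the called one, with 21.3 FPKM in APAP replicate 1 and 0.18 in APAP replicate 3, and its call ended without APAP replicate 1 and without either control library (adjusted p up to 0.204 over the alternatives).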
